A study of Mus musculus with 9 samples.

Results

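H3K4me3 peaks at promoters that were listed in granulocyte-macrophage progenitors (GMP) and in mature eosinophils (Eos), but not in the eosinophil progenitors (EoP) that stand between them, numbered 1731 of the 20109 promoter intervals of the GMP peak list. A member was a unique GMP interval annotated as promoter that overlapped an interval of the Eos list by at least 1 base and no interval of the EoP list. Members were thus chosen by measured values, the interval calls of the 3 peak lists, and presence or absence in them is a description and not a result. The other GMP promoter intervals were 13080 overlapped in both other lists, 934 overlapped in the EoP list only and 4364 overlapped in neither. The members were annotated to 1714 of the 13278 genes with a GMP promoter interval (12.9%), and 157 of these genes had more than 1 member peak. All cells were sorted at homeostasis from marrow pooled over Balb/c mice, with no genetic change or treatment in any group. GMP were lineage-negative, CD34+, CD16/32+ cells with high c-kit, EoP were lineage-negative, CD34+ cells with low c-kit and CD125 (the interleukin-5 receptor alpha chain), and Eos were positive for CCR3 and Siglec-F. RNA was sequenced in 2 libraries of each cell type and H3K4me3 chromatin in 1 library of each, so no peak has a replicate. The age and sex of the mice were not given in the sources used here, nor whether the 2 RNA libraries of a cell type came from different animals, so a p-value measures only the spread between these libraries.

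Trimethylation of lysine 4 of histone H3 marks the start sites of active and poised genes. It is written by SET1 and MLL complexes, which are drawn to unmethylated CpG dinucleotides, and removed by KDM5 and related demethylases. CpG-rich promoters therefore tend to carry the mark in most cells, while CpG-poor promoters carry it mainly where the gene is transcribed. At developmental regulators the mark often coexists with Polycomb-deposited H3K27me3. GMP give rise to neutrophils, monocytes and the eosinophil lineage, and EoP are committed to eosinophils and fill with granule protein transcripts before they mature.

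The promoter sequences shown first belong to 4 of the 8 genes with the largest called dips at both steps, those with an entry in the table, and differ in CpG content. Each run is a RefSeq window of the mouse build GRCm38.p6, from 250 bases before to 50 bases after the annotated start, written 5′ to 3′ on the gene's strand, with CpG dinucleotides in capitals. C2cd4c (chr10:79613976-79614275, minus strand, 23 CpG) and Epha4 (chr1:77515039-77515338, minus strand, 17 CpG) have windows that overlap their member peak. The Ptprr window (chr10:116177101-116177400, plus strand, 12 CpG) ends 30 bases from its peak, and the Prlr window (chr15:10176988-10177287, plus strand, 8 CpG) lies 707 bases from its peak. The promoters of a pair of myeloid genes with larger RNA counts, chosen after their values were seen, follow: Csf3r (chr4:126024409-126024708, plus strand, 9 CpG), whose window contains the whole member peak, and Lyz2 (chr10:117282223-117282522, minus strand, 1 CpG), whose peak lies 137 bases from the window.
C2cd4c: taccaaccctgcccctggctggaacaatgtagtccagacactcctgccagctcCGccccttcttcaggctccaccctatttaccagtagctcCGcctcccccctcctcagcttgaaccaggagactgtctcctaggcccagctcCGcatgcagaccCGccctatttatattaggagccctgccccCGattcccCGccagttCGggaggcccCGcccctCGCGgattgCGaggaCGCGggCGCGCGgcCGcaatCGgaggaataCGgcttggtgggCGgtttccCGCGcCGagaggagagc
Epha4: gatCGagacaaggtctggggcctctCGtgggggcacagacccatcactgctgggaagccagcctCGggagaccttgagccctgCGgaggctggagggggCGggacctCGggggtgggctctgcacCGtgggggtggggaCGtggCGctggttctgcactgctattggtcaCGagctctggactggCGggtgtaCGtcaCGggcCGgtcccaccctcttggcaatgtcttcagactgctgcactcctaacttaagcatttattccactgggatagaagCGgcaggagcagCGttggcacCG
Ptprr: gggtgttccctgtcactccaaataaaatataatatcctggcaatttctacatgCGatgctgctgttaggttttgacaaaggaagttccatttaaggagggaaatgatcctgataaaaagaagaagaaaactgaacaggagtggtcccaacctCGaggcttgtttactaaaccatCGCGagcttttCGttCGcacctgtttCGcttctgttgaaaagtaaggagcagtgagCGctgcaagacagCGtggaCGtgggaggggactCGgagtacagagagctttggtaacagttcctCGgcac
Prlr: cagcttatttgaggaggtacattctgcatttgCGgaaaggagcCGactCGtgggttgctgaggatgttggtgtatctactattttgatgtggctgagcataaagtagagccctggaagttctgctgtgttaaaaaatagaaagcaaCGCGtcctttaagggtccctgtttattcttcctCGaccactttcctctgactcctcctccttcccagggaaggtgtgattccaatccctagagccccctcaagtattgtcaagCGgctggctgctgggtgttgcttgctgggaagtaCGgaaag
Csf3r: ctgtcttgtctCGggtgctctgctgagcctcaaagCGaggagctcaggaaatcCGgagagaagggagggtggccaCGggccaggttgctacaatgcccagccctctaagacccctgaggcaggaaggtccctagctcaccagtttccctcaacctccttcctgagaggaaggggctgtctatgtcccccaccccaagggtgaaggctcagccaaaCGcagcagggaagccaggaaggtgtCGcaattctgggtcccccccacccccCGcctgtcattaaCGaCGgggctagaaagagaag
Lyz2: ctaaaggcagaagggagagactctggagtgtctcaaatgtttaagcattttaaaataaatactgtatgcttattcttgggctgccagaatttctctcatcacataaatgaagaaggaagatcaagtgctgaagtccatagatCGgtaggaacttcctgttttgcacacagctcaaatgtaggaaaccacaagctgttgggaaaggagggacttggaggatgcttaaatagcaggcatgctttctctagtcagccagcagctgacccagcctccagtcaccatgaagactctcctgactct

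The member peaks fell into 2 kinds. For 1179 of them (68.1%) a gene of the peak also had a promoter interval in the EoP list at another position. For the other 552 (31.9%) no gene of the peak had one. The first kind lay close to what EoP had, with a median of 183 bases to the nearest EoP interval, and the second kind lay far away, with a median of 41270 bases. Over all members, 267 had an EoP interval within 100 bases, 1141 (65.9%) within 1000 bases, and 499 (28.8%) only over 10000 bases away. The second kind is defined by the absence of EoP intervals annotated as promoter of the gene, and its smallest distance to any EoP interval was 97 bases. At gene level, 1208 member genes had an EoP promoter peak and 506 had none, which is 3.81% of the genes with a GMP promoter interval.

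The 2 kinds also lay on different sides of the start. With an EoP promoter peak at the gene, the GMP summit had a median position of -181 bases, 560 of 1179 summits (47.5%) lay 100 to 500 bases upstream, and 39.1% lay downstream of the start. Without one, the median was +146 bases, 92 of 552 (16.7%) lay 100 to 500 bases upstream, and 70.3% lay downstream. Peaks overlapped in all 3 lists resembled the second kind in this respect, with 17.8% of summits 100 to 500 bases upstream and 73.3% downstream. Another GMP promoter interval stood within 1000 bases of 1151 members of the first kind (97.6%), of 332 of the second (60.1%) and of 64.4% of the peaks in all 3 lists. For intervals overlapped in the EoP list only and in neither other list, it was 83.3% and 80.4%, near the 85.7% of all members. Summits of these sets lay downstream in 58.2% and 58.1%, against 49.0% of all members.

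**Figure D1:**
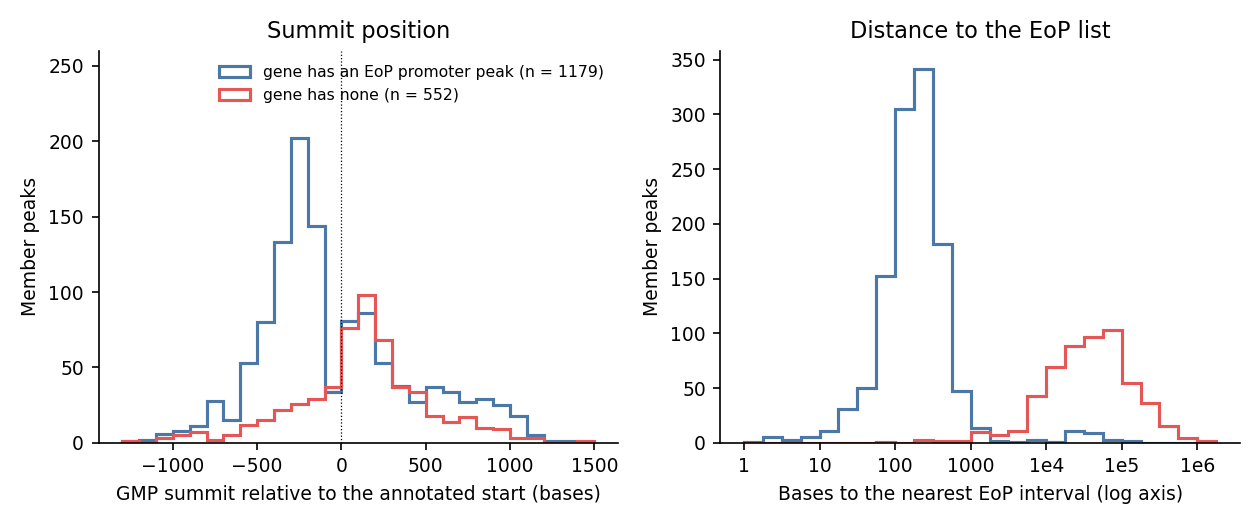
Position of the GMP summit relative to the annotated start in bases (left) and distance to the nearest EoP interval in bases on a log axis (right), as numbers of member peaks. Members whose gene has an EoP promoter peak (blue, 1179) cluster upstream of the start and about 183 bases from an EoP interval, while those whose gene has none (red, 552) cluster downstream and about 41270 bases away.

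Members were short and weak beside promoter peaks shared by all cells. Lengths, fold enrichments, pileups and q-values of peaks are the authors' own. Enrichments, pileups and q-values are compared only within a list, and lengths are also set side by side across lists. Within the GMP list, the median member was 208 bases long against 700 for peaks overlapped in all 3 lists, its fold enrichment was 4.74 against 9.27, and its -log10 q was 5.36 against 24.7. The other intervals absent from a list were short and weak too: those overlapped in neither other list had medians of 146 bases, 4.36-fold and 3.73, below the members. Those overlapped in the EoP list only had 297.5 bases, 5.30-fold and 6.88, above them. Intervals under 200 bases made up 47.6% of members and 3.54% of the peaks in all 3 lists. A -log10 q of at least 10 was reached by 251 members (14.5%) and by 84.3% of the peaks in all 3 lists. Among the GMP promoter intervals that overlapped an Eos interval, the share missing from the EoP list was 64.0% under 200 bases, 25.1% from 200 to below 400 bases, 6.93% from 400 to below 600 bases and 0.301% at 1000 bases or more. Only 26 members had a -log10 q of at least 10 in both the GMP and the Eos list, and 24 of these lay within 1000 bases of an EoP interval; the other 2 were at Fam49a and Grin2d, 24982 and 5976 bases away.

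**Figure D2:**
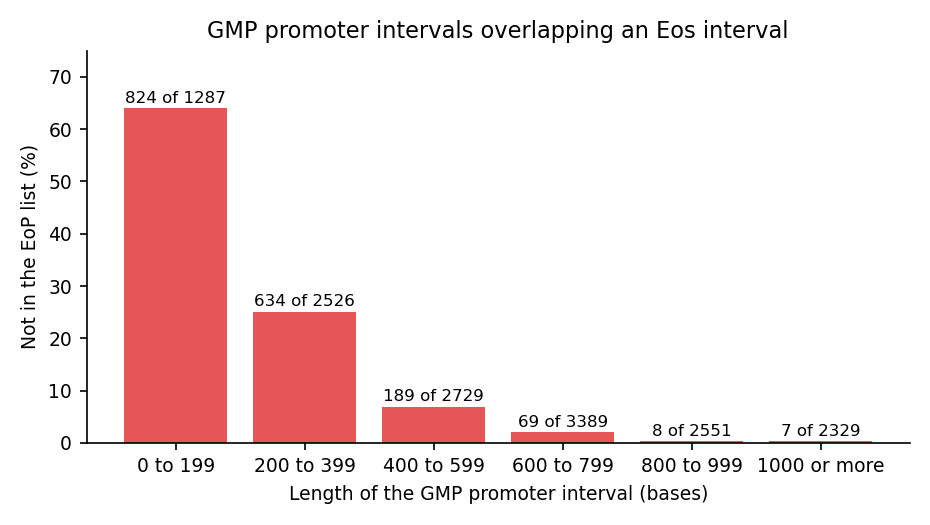
Share of GMP promoter intervals overlapping an Eos interval that were not in the EoP list (vertical axis, percent), by length of the GMP interval (horizontal axis, bases), with the numbers above each bar. The share falls from 64.0% of the shortest to 0.301% of the longest intervals.

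The lists themselves differed in size, and this bears on every absence. The EoP list held 19816 intervals against 30645 in GMP and 33847 in Eos, and 15272 promoter intervals against 20109 and 15672. Sequencing depth of the chromatin libraries was not given in the sources used here, so an absence from the EoP list cannot be told apart from a weaker or shallower library. With the same number of top-ranked intervals taken from each list, the number of member peaks was 734. At the edge of the rule, members at Gng4, Schip1 and Txn1 lay 1, 2 and 2 bases from an EoP interval, with GMP fold enrichments of 6.95, 7.10 and 3.24. Just outside it, intervals at Prdx6, Rap2a and Cd1d1 each overlapped an EoP interval by 1 base, with fold enrichments of 4.52, 2.70 and 7.16, and one at Hdac2 by 2 bases, with 3.69.

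Among members without an EoP promoter peak, some were long in GMP. The longest was at Tubb6, a tubulin gene (1231 bases). Other long ones among the named genes were at F13a1, the coagulation factor XIII A chain of monocytes and platelets (1204 bases, chr13:37047961-37049164), and at Csf1r, the receptor for macrophage colony-stimulating factor (1046 bases). Prom1, the stem cell surface protein prominin 1, had 1031 bases (chr5:44100497-44101527), and Irf8, the transcription factor of monocytes and dendritic cells, had 942 bases (chr8:120736516-120737457). The overlapping Eos intervals were 405 bases at Tubb6 and 307 at Csf1r, longer than the median of 174.5 for this kind, and 136 bases at F13a1 and Prom1 and 156 bases at Irf8, shorter than it. The shortest length in the Eos list is 136 bases. That shortest length was found at 96 of the 552 members without an EoP promoter peak (17.4%) and at 78 of the 1179 with one (6.62%). At other members the Eos interval was the longer one: the GMP intervals at Adam19 (101 bases, chr11:46056270-46056370) and Ccl6 (109 bases, chr11:83592532-83592640) were near the shortest of the GMP list (89 bases), and the Eos intervals there were 643 and 339 bases. The Eos intervals at Prom1, Slc7a2, Csf3r, Prlr, Epha4, Rhbdl3, Otx1 and Pax2 had a -log10 q of 0.77. This is close to the lowest value in the Eos list, 0.71. At Lyz2 it was 1.22.

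RefSeq promoter windows were matched by current or older symbol to 1391 of the 1731 member peaks (80.4%, 1284 windows), and to 975 of the 1179 whose gene had an EoP promoter peak (82.7%, 917 windows). For members whose gene had none, 416 of 552 had a window (75.4%). This is under the 80% set as the lowest usable coverage, because the table has no entry for the rest, so the comparison of sequence is void for that kind and its values are not given. The median member window held 23 CpG in 300 bases, and that of members with an EoP promoter peak 25. Windows of peaks in all 3 lists (8437, for 81.9% of these peaks) had a median of 22 and all 32817 windows of the table a median of 7. At most 5 CpG were found in 7.32% of the member windows, 4.47% of those with an EoP promoter peak, 3.72% for peaks in all 3 lists and 43.6% of all windows. Of the sequences shown, C2cd4c, Epha4, Ptprr, Prlr and Csf3r hold more CpG than the median of all windows and Lyz2 fewer. Motifs were searched on both strands as exact letters. CCGGAA, the core of ETS factor sites, was found in 21.1% of the member windows, 25.7% of those with an EoP promoter peak, 32.0% for peaks in all 3 lists and 14.9% of all windows. GGGCGG, the core of the GC box, was found in 73.0%, 77.4%, 70.3% and 35.6% in the same order. The GATA letters AGATAA were found in 6.31%, 5.89%, 5.32% and 11.2%. GGGCGG and CCGGAA each hold a CpG. The share with CCGGAA was lower for members than for peaks in all 3 lists, although the median CpG number was not. It was lower too, at 18.7%, for intervals overlapped in the EoP list only, with a median of 21 CpG, so it is not particular to members.

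**Figure D3:**
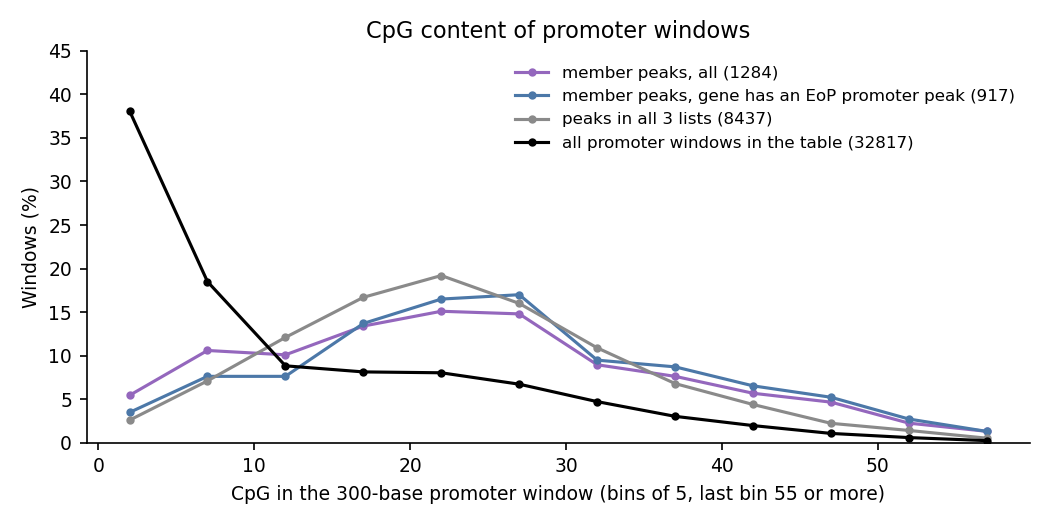
Percent of promoter windows (vertical axis) by number of CpG in the 300-base window, in bins of 5 (horizontal axis). Windows of all members (purple, 1284), of members whose gene has an EoP promoter peak (blue, 917) and of peaks in all 3 lists (grey, 8437) mostly hold more CpG than those of the whole table (black, 32817), whose median is 7.

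RNA totals were 5226653 to 12088134 counts per library, and all values below are CPM (counts scaled to a common library size with TMM factors) unless RPKM is named. Summed granule genes of eosinophils stood at 1286 and 304.1 CPM in GMP, 258632 and 206139.5 in EoP, and 17312 and 14690.0 in Eos. Of these genes, 10 of 10 tested were lower in Eos than EoP. Summed eosinophil surface receptor genes stood at 1502 and 1265 CPM in GMP, 3698 and 3884 in EoP, and 11150 and 17309 in Eos. Of 27 tested, 19 were higher in Eos than EoP. Summed primary granule genes of GMP stood at 46075 and 43380 CPM in GMP, 6528 and 6716 in EoP, and 18388 and 8231 in Eos. Summed neutrophil genes stood at 2845 and 1204 CPM in GMP, 2172 and 1881 in EoP, and 47280.3 and 54280.3 in Eos, and 25 of 25 tested were higher in Eos than EoP. Summed activation and dissociation stress genes differed between libraries of 1 cell type, with 951 and 4539 CPM in GMP and 7577 and 314 in EoP. The Y-linked gene Ddx3y was at 0 in both GMP libraries, 46.0 and 30.5 CPM in EoP, and 47.3 and 34.1 in Eos, so the cell type and the sex of the animals cannot be told apart in comparisons with GMP. The X chromosome held 4.51% of member peaks and 3.57% of all GMP promoter intervals. In these bulk samples, fewer cells of a type and less RNA per cell cannot be told apart.

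Most member genes without an EoP promoter peak had little RNA in any of the 3 cell types, and among those tested more were lower than higher in EoP than in GMP. Of the 506 member genes without an EoP promoter peak, 376 (74.3%) were under 1 RPKM in all 6 libraries, against 220 of 1208 (18.2%) with one, 16.2% of the genes of peaks in all 3 lists and 54.8% of all genes. Their median was 0.152 and 0.170 RPKM in GMP, 0.0435 and 0.0528 in EoP, and 0.0580 and 0.0495 in Eos. Member genes with an EoP promoter peak had medians of 2.75 and 2.71, 3.83 and 4.08, and 3.31 and 2.55 RPKM in the same order. The median of the genes without one was thus lower in both EoP libraries than in both GMP libraries, while that of the genes with one was higher. Over all genes the medians were 0.342 and 0.310 RPKM in GMP, 0.136 and 0.169 in EoP, and 0.166 and 0.113 in Eos. A lower median in EoP than in GMP is thus not particular to the genes without an EoP promoter peak.

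The filter on low counts passed 1459 of the 1714 member genes, 324 of the 506 without and 1135 of the 1208 with an EoP promoter peak, so a gene could pass through the cell type in which it was high. Of these 1459, 198 were lower in EoP than GMP (13.6%, against 17.1% of all 14324 tested genes; edgeR adjusted p under 0.05) and 177 were higher (12.1%, against 9.49%). By kind, 109 of 324 genes without an EoP promoter peak were lower (33.6%) and 15 higher (4.63%), while 89 of 1135 with one were lower (7.84%) and 162 higher (14.3%). Their median log2 changes were -1.04 without and 0.13 with an EoP promoter peak, against -0.07 over all tested genes. Genes of intervals overlapped in neither other list gave 590 of 2545 lower (23.2%) and 189 higher (7.43%), with a median of -0.34. That set was not split by EoP promoter peak, so the fall cannot be called particular to members without one. These shares depended on the filter on low counts. With at least 50 counts in 2 libraries, 7.83% of the members were lower in EoP, now above the 6.33% of all tested genes, and with a mean of at least 5 CPM, an alternative added after seeing the data, 8.51% against 6.75%. Of the genes without an EoP promoter peak, 21.2% were then lower and 8.33% higher with at least 50 counts, against 6.33% and 8.90% of all genes, and 22.9% and 11.9% with a mean of at least 5 CPM, against 6.75% and 13.5%. Their share of higher genes was thus near that of all genes under both filters. With limma on log2(RPKM + 0.5), 21 of 112 of them were lower (18.8%, against 3.61% of all genes) and 19 higher (17.0%, against 22.8%). Leaving out 1 library of either cell type lowered all such counts: the genes without an EoP promoter peak gave 25 of 331 (7.55%, against 2.18% of all tested genes) without GMP library 1, 28 (8.46%, against 3.01%) without GMP library 2, 36 of 371 (9.70%, against 4.48%) without EoP library 1, and 38 of 360 (10.6%, against 4.32%) without EoP library 2. Those with one gave 18, 20, 26 and 29 lower genes in the same order and, with either Eos library left out, 135 (11.7%, against 22.9% and 22.7% of all tested genes). The 162 higher genes with an EoP promoter peak became 55, 67, 75 and 106 in that order (4.77%, 5.83%, 6.47% and 9.18%, against 2.96%, 3.89%, 4.06% and 5.98% of all tested genes). Without Eos library 1 and 2 they became 264 (22.8%, against 15.1%) and 263. The 15 higher genes without one became 5, 8, 10 and 13, and 22 without either Eos library. With library size alone as the scaling, which moved the median log2 change of all genes by -0.46, the split over all members was 320 lower (21.9%, against 25.0% of all tested genes) and 79 higher (5.41%, against 4.21%).

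From EoP to Eos, 365 of the 1459 tested member genes rose (25.0%, against 19.1% of all tested genes) and 250 fell (17.1%, against 17.7%). Without an EoP promoter peak, 98 of 324 rose (30.2%) and 25 fell (7.72%), with a median log2 change of 0.82 against 0.02 over all tested genes. With at least 50 counts in 2 libraries, 75 of 132 rose (56.8%, against 25.0%) and 16 fell (12.1%, against 23.1%). This filter also turned their split in Eos against GMP. It went from 22.2% higher and 34.3% lower to 50.8% and 21.2%, against 29.7% and 29.4% of all tested genes. A gene could pass this filter through its 2 Eos libraries alone. These held 10940000 and 10790618 counts, against 6576661 and 5226653 in GMP, and the part of this in these shares was not tested. With an EoP promoter peak, 267 of 1135 rose from EoP to Eos (23.5%) and 225 fell (19.8%), with a median of 0.01. Without EoP library 1, these 267 and 225 became 166 and 107 (14.3% and 9.23%, against 10.5% and 8.66% of all tested genes), and without EoP library 2 they became 170 and 127 (14.7% and 11.0%, against 11.5% and 9.34%). Between the ends, 424 member genes were higher in Eos than GMP (29.1%, against 22.7%) and 371 were lower (25.4%, against 31.8%), and with library size alone the split was 278 higher (19.1%, against 14.1%) and 572 lower (39.2%, against 47.2%). Without GMP library 1 the lower genes numbered 169 (11.4%, against 13.9% of all tested genes), and without GMP library 2 they numbered 132 (8.92%, against 11.4%).

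Both steps together, down into EoP and up into Eos, were called for 71 of 1459 tested member genes (4.87%, against 3.60% of all tested genes). Of these, 38 were among the 324 without an EoP promoter peak (11.7%) and 33 among the 1135 with one (2.91%). Genes of peaks in all 3 lists gave 191 of 10343 (1.85%), those of intervals overlapped in the EoP list only 26 of 866, and those of intervals overlapped in neither other list 152 of 2545 (5.97%), a larger share than that of all member genes. The 2 steps share the EoP libraries, so a low or high value there enters both. The 38 became 17, 22, 20 and 20 without GMP library 1, GMP library 2, EoP library 1 and EoP library 2, against 1.05%, 1.34%, 1.20% and 1.52% of all tested genes. The 33 with an EoP promoter peak, 2.91% against 3.60% of all tested genes, also changed in number with the library left out. Limited to a mean of at least 5 CPM over all 6 libraries, all member genes gave 4.35% and genes of intervals overlapped in neither other list 5.34%, while the genes without an EoP promoter peak gave 20 of 118 (16.9%), against 261 of 9724 (2.68%) of all genes. The opposite course, up into EoP and down into Eos, was called for 44 member genes (3.02%, against 2.07%), of which 4 had no EoP promoter peak.

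**Figure D4:**
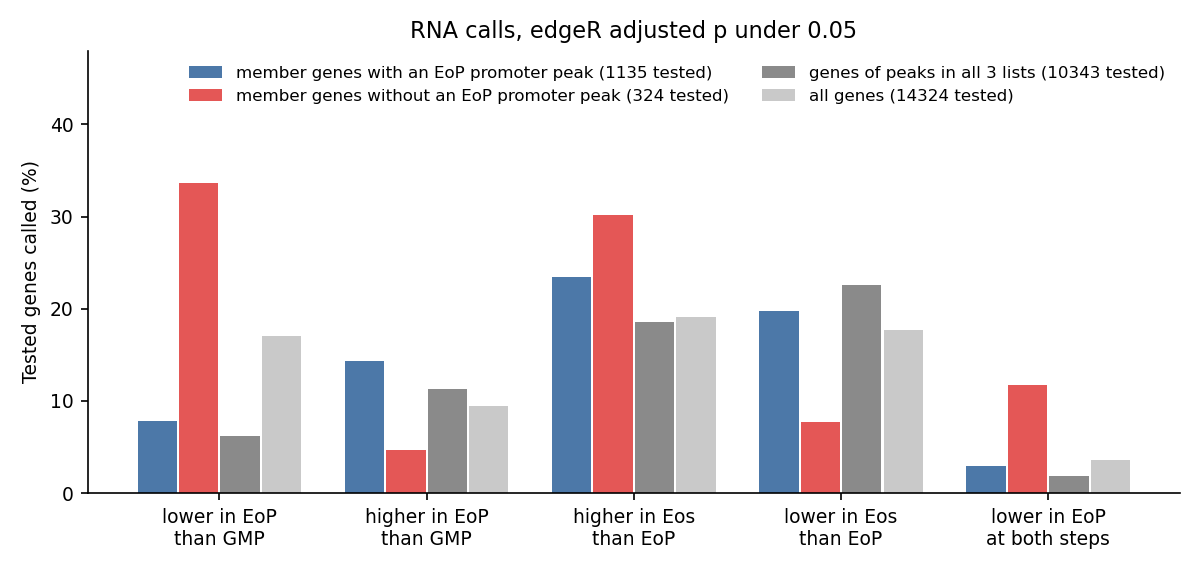
Percent of tested genes called by edgeR at an adjusted p under 0.05 (vertical axis) for each direction (horizontal axis), in member genes with (blue, 1135 tested) and without (red, 324 tested) an EoP promoter peak, genes of peaks in all 3 lists (dark grey) and all tested genes (light grey). Of the 1714 member genes, 1151 also belong to the dark grey set. The red bars stand above the other 3 for genes lower in EoP than GMP (33.6%), higher in Eos than EoP (30.2%) and lower in EoP at both steps (11.7%), and below them for the opposite directions.

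Receptors and effectors of the neutrophil and monocyte branches were among the members without an EoP promoter peak whose RNA dipped in EoP. Csf3r, the receptor for granulocyte colony-stimulating factor (chr4:126024436-126024595, upstream of its start), had 206 and 196 CPM in the GMP libraries, 8.36 and 10.6 in the EoP libraries and 195 and 106 in the Eos libraries. Both EoP libraries lay below all 4 others, and the log2 change was -4.40 ± 0.33 (SE) from GMP to EoP (edgeR adjusted p = 5.73e-05) and 3.98 ± 0.33 from EoP to Eos (edgeR adjusted p = 4.1e-05). From GMP to Eos it was -0.42 ± 0.29 (edgeR adjusted p = 0.234). Csf1r had 102 and 112 CPM in the GMP libraries, 4.71 and 14.1 in the EoP libraries and 172 and 351 in the Eos libraries, again with no overlap between EoP and the others, and it changed by -3.49 ± 0.49 (edgeR adjusted p = 0.00143) and 4.77 ± 0.51 (edgeR adjusted p = 0.000167). Lyz2, the lysozyme of macrophages and neutrophils (chr10:117281543-117282086), had 323 and 214 CPM in the GMP libraries, 43.1 and 29.0 in the EoP libraries and 2236 and 1695 in the Eos libraries. Its changes were -2.90 ± 0.33 (edgeR adjusted p = 0.000482) and 5.77 ± 0.38 (edgeR adjusted p = 1.41e-05), and it ended higher in Eos than in GMP. Prom1 had 142 and 109.9 CPM in the GMP libraries, 2.00 and 3.25 in the EoP libraries and 99.9 and 37.1 in the Eos libraries, with changes of -5.55 ± 0.51 (edgeR adjusted p = 0.000137) and 4.68 ± 0.49 (edgeR adjusted p = 0.000148). These calls held in each fit that left out 1 library. The summed neutrophil genes were also higher in both Eos libraries than in the others, with the values given above, and their part in these rises was not tested.

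F13a1 and Irf8 fell from GMP to EoP, and no change from EoP to Eos passed the test. F13a1 had 509.6 and 458 CPM in the GMP libraries, 18.8 and 35.9 in the EoP libraries and 48.3 and 31.5 in the Eos libraries, and its log2 change was -4.14 ± 0.36 to EoP (edgeR adjusted p = 0.000108) and 0.54 ± 0.32 from EoP to Eos (edgeR adjusted p = 0.207). Irf8 had 169 and 176 CPM in the GMP libraries, 6.12 and 29.1 in the EoP libraries and 16.7 and 10.2 in the Eos libraries, with -3.27 ± 0.56 (edgeR adjusted p = 0.00405) and -0.40 ± 0.54 (edgeR adjusted p = 0.582). Both are among the long GMP peaks that met an Eos interval of at most 156 bases. Of the 27 genes in the monocyte, macrophage and dendritic cell list, 17 had a GMP promoter interval and 7 were members, all 7 without an EoP promoter peak. Of these 7, 5 were lower in EoP than GMP and 5 higher in Eos than EoP, against 13 and 16 of the 26 tested genes of the whole list. The summed list stood at 2140 and 1712 CPM in GMP, 1592 and 1558 in EoP, and 4375 and 4450 in Eos.

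A group of genes of low abundance had no count at all in either EoP library. Slco5a1, an organic anion transporter family gene (chr1:12991969-12992707), had 9.18 and 7.88 CPM in the GMP libraries, 0 and 0 in the EoP libraries and 3.51 and 1.87 in the Eos libraries. Against a floor of 3 counts over the group, it was at least 57.8-fold lower in EoP than GMP (edgeR adjusted p = 0.000898) and at least 18.5-fold higher in Eos than EoP (edgeR adjusted p = 0.00162). Ptprr, a receptor tyrosine phosphatase (chr10:116177430-116177965), had 11.6 and 4.76 CPM in the GMP libraries, 0 and 0 in the EoP libraries and 8.42 and 2.33 in the Eos libraries, at least 57.4-fold lower (edgeR adjusted p = 0.0035) and at least 37.7-fold higher (edgeR adjusted p = 0.00241). Both dips were called in each fit that left out 1 library. Prlr, the prolactin receptor (chr15:10177994-10178399), had 7.49 and 7.73 CPM in the GMP libraries, 0 and 0 in the EoP libraries and 0.501 and 1.28 in the Eos libraries, at least 51.1-fold lower (edgeR adjusted p = 0.00153) and at least 5.80-fold higher (edgeR adjusted p = 0.0112, and 0.053 without EoP library 2). C2cd4c (chr10:79613612-79614109) and Epha4, an ephrin receptor (chr1:77514379-77515146), had 3.14 and 2.68 and 3.62 and 2.97 CPM in GMP, 0 in EoP, and 1.10 and 0.817 and 0.100 and 1.28 CPM in Eos. Arhgap24, a GTPase activator, and Rhbdl3, a rhomboid family gene, were likewise at 0 in both EoP libraries and between 0.35 and 3.57 CPM elsewhere. The falls of C2cd4c, Epha4, Arhgap24 and Rhbdl3 each lost their call without GMP library 1 and without GMP library 2. Those of Arhgap24 and Rhbdl3 also lost it without either EoP library, and that of Epha4 without EoP library 2. Rises into Eos were lost too. That of C2cd4c was lost without EoP library 2, and that of Arhgap24 without either EoP library. That of Epha4 (edgeR adjusted p = 0.0465, 12 counts in Eos) was lost in each fit but the one without Eos library 1, with an edgeR adjusted p of up to 0.338. That of Rhbdl3 was lost in each fit but the one without Eos library 2. For the falls, the highest edgeR adjusted p in these fits was 0.0632 for C2cd4c, 0.0949 for Epha4, 0.205 for Arhgap24 and 0.142 for Rhbdl3. Slc7a2, a cationic amino acid transporter, had 19.9 and 10.7 CPM in the GMP libraries, 0.235 and 0.171 in the EoP libraries and 4.31 and 3.03 in the Eos libraries and kept both calls in each of these fits (log2 change -6.17 ± 0.67, edgeR adjusted p = 0.000332, and 4.12 ± 0.68, edgeR adjusted p = 0.00163).

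**Figure D5:**
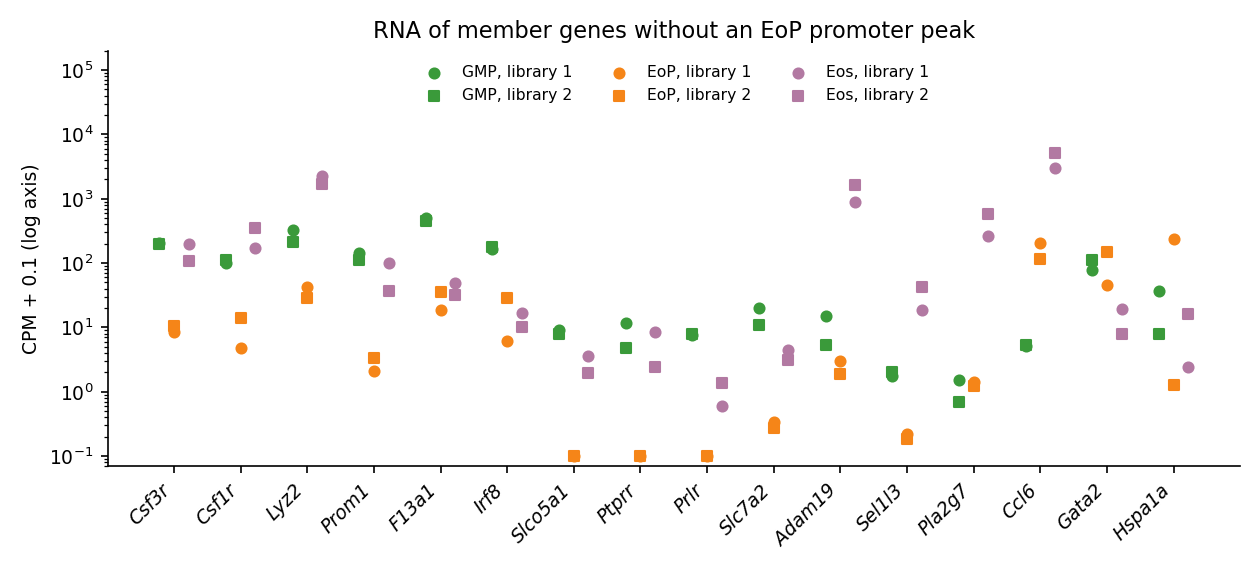
CPM plus 0.1 on a log axis for 16 named member genes without an EoP promoter peak, in the 2 libraries of GMP (green), EoP (orange) and Eos (purple). Csf3r, Csf1r, Lyz2, Prom1, Slco5a1, Ptprr, Prlr and Slc7a2 have both EoP libraries below the other 4, while Ccl6 climbs at each step and Gata2 and Hspa1a do not dip.

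Other members without an EoP promoter peak rose from EoP to Eos and ended above both progenitors. Adam19, a metalloprotease, had 14.9 and 5.20 CPM in the GMP libraries, 2.94 and 1.80 in the EoP libraries and 895 and 1630.0 in the Eos libraries, with a log2 change of 9.07 ± 0.62 from EoP to Eos (edgeR adjusted p = 1.73e-05). It also fell from GMP to EoP, with a log2 change of -2.12 ± 0.53 (edgeR adjusted p = 0.0168), a call lost without GMP library 1 or either EoP library. Pla2g7, the platelet-activating factor acetylhydrolase, had 1.45 and 0.595 CPM in the GMP libraries, 1.29 and 1.11 in the EoP libraries and 262 and 570.0 in the Eos libraries and rose by 8.43 ± 0.51 (edgeR adjusted p = 1.22e-05). Ankrd33b rose from 0.471 and 0.856 CPM in EoP to 138 and 256 in Eos, by 8.14 ± 0.61 (edgeR adjusted p = 2.49e-05). Sel1l3 had 1.69 and 1.93 CPM in the GMP libraries, 0.118 and 0.0856 in the EoP libraries and 18.7 and 42.0 in the Eos libraries, with 2 counts in EoP. Its Eos to EoP ratio of 297.7 has a counting interval of 82.0 to 2464 (edgeR adjusted p = 5.04e-05), and its GMP to EoP ratio of 18.2 one of 4.56 to 158 (edgeR adjusted p = 0.00829, and 0.0624 without EoP library 2). For Tmem229a only 3 counts were seen in EoP, and the Eos to EoP ratio of 2577 has a counting interval of 881.5 to 12500.4 (edgeR adjusted p = 1.22e-05). Rsad2, an interferon-induced antiviral enzyme (chr12:26456185-26456486), had 2.66 and 2.53 CPM in the GMP libraries, 0.589 and 0.428 in the EoP libraries and 23.7 and 31.5 in the Eos libraries and rose by 5.75 ± 0.47 (edgeR adjusted p = 3.84e-05), after a change of -2.35 ± 0.50 from GMP to EoP (edgeR adjusted p = 0.00964) that was lost without GMP library 1 or EoP library 2. All 6 of these genes had higher values in both Eos libraries than in any other.

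A missing EoP promoter peak did not go with a dip at every gene. Ccl6, a chemokine of myeloid cells, lay 118531 bases from the nearest EoP interval and had 5.07 and 5.20 CPM in the GMP libraries, 207 and 117 in the EoP libraries and 3033 and 5238 in the Eos libraries. It rose at both steps, by 4.97 ± 0.44 (edgeR adjusted p = 0.000118) and 4.68 ± 0.42 (edgeR adjusted p = 5.81e-05). Gata2, a transcription factor of progenitors, mast cells and basophils (chr6:88198768-88198932, 4548 bases from the nearest EoP interval), had 78.3 and 113 CPM in the GMP libraries, 46.3 and 146 in the EoP libraries and 19.2 and 7.82 in the Eos libraries. The EoP libraries spanned the GMP values, with a change of 0.01 ± 0.50 (edgeR adjusted p = 0.989), and the fall came from EoP to Eos, -2.83 ± 0.55 (edgeR adjusted p = 0.00363). The summed mast cell and basophil list, which includes Gata2, stood at 1377 and 1381 CPM in GMP, 1739 and 4592 in EoP, and 438 and 431 in Eos. How far Gata2 followed these cells was not tested. Pdgfrb, a stromal growth factor receptor, had 11.4 and 12.8 CPM in the GMP libraries, 17.9 and 19.3 in the EoP libraries and 3.81 and 1.63 in the Eos libraries and also fell at the second step (edgeR adjusted p = 0.00128). Hspa1a, an inducible heat shock gene, had 36.1 and 7.73 CPM in the GMP libraries, 240.0 and 1.20 in the EoP libraries and 2.31 and 16.0 in the Eos libraries. Its EoP libraries spanned all the others, as the summed stress genes in EoP spanned those in GMP, and no change of it passed the test.

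Several members whose gene kept a promoter peak in EoP rose from GMP to EoP. Emr4, an adhesion receptor of macrophages and eosinophils (chr17:55750908-55751085, 300 bases from an EoP interval), had 1.81 and 1.34 CPM in the GMP libraries, 187 and 245 in the EoP libraries and 810.2 and 1146 in the Eos libraries and rose by 7.07 ± 0.37 (edgeR adjusted p = 2.31e-05) and 2.18 ± 0.27 (edgeR adjusted p = 0.000377). Mkx, a homeobox gene, had 0 and 0 CPM in the GMP libraries, 10.8 and 11.9 in the EoP libraries and 161 and 254 in the Eos libraries, at least 57.2-fold higher in EoP than GMP (edgeR adjusted p = 0.000111). Itgam, the integrin CD11b, had 134 and 97.3 CPM in the GMP libraries, 549.8 and 711 in the EoP libraries and 3496 and 5650.3 in the Eos libraries and rose by 2.45 ± 0.35 (edgeR adjusted p = 0.00161) and 2.86 ± 0.35 (edgeR adjusted p = 0.000359). Bhlhe40, a basic helix-loop-helix factor, rose by 2.83 ± 0.62 (edgeR adjusted p = 0.0106), and Bmpr1a, a bone morphogenetic protein receptor, by 3.36 ± 0.37 (edgeR adjusted p = 0.000392).

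Some genes of this kind peaked in EoP. Amigo2, an adhesion protein, had 0.362 and 0.297 CPM in the GMP libraries, 24.0 and 11.0 in the EoP libraries and 0.601 and 0.700 in the Eos libraries, with log2 changes of 5.65 ± 0.67 (edgeR adjusted p = 0.000554) and -4.72 ± 0.60 (edgeR adjusted p = 0.000405). Nrarp, a feedback inhibitor of Notch signalling, had 1.57 and 0.892 CPM in the GMP libraries, 18.8 and 12.2 in the EoP libraries and 0.401 and 0.350 in the Eos libraries, with 3.62 ± 0.53 (edgeR adjusted p = 0.00193) and -5.31 ± 0.61 (edgeR adjusted p = 0.000225). Sncaip, which encodes a synuclein-binding protein, had 3.87 and 5.06 CPM in the GMP libraries, 93.9 and 97.5 in the EoP libraries and 11.6 and 7.47 in the Eos libraries, with 4.43 ± 0.31 (edgeR adjusted p = 4.34e-05) and -3.32 ± 0.29 (edgeR adjusted p = 5.08e-05). Notch1, the receptor, had 83.0 and 78.5 CPM in the GMP libraries, 70.4 and 96.2 in the EoP libraries and 275 and 446 in the Eos libraries. Its difference between GMP and EoP did not pass the test (edgeR adjusted p = 0.926), and it rose from EoP to Eos (edgeR adjusted p = 0.000546). L1cam, a neuronal adhesion molecule on the X chromosome, went from 7.42 and 13.4 CPM in EoP to 355 and 626 in Eos, 5.54 ± 0.39 (edgeR adjusted p = 2.01e-05). Nrp2, a semaphorin and VEGF receptor, fell from 16.9 and 19.3 to 2.35 and 1.88 CPM, -3.10 ± 0.45 (edgeR adjusted p = 0.00167), and had 6.22 and 3.74 in Eos. Of the genes of the division cycle in this kind, Ndc80 and Nuf2 of the kinetochore and Pcna of the replication fork fell from EoP to Eos, and Orc5 of the origin recognition complex had a change of -0.69 ± 0.28 that did not pass the test (edgeR adjusted p = 0.0743). In their whole lists, 35 of 35 mitosis genes and 36 of 40 replication genes were lower in Eos than EoP.

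Functional lists showed where the 2 kinds fell. None of the 5 eosinophil granule genes with a GMP promoter interval was a member. Of the 165 Hox and developmental transcription factor genes, 74 had a GMP promoter interval and 10 were members, 9 of them without an EoP promoter peak: Pax2, Sox8, Foxd1, Dlx1, Otx1, Neurog2, Ascl2, Vax2 and Isl2. Only 4 of the 10 passed the filter on low counts. Ascl2, the most abundant, had 2.54 and 1.64 CPM in the GMP libraries, 1.29 and 0.856 in the EoP libraries and 5.21 and 9.22 in the Eos libraries and rose from EoP to Eos by 2.75 ± 0.61 (edgeR adjusted p = 0.00675). Ion channel and neuronal adhesion genes gave 22 members of 83 with a GMP promoter interval, 17 without an EoP promoter peak, and of the 13 tested 6 were lower in EoP than GMP and 3 higher in Eos than EoP, against 45 and 13 of the 84 tested genes of the whole list. Genes of Wnt, Bmp, Tgf-beta, Notch and hedgehog signalling gave 13 members of 68, 8 of them without an EoP promoter peak. The eosinophil lineage transcription factors gave 10 members of 29, and only Gata2 and Irf8 had no EoP promoter peak; 5 of the 10 rose from GMP to EoP and 2 fell, against 11 and 5 of the 30 tested genes of the whole list. Among the 4 interferon response members, Oas1a, Stat2, Rsad2 and Ddx58, all 4 were higher in Eos than EoP, as were 24 of the 27 tested genes of that list.

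Member genes in the H3K4 methyltransferase, H3K4 demethylase and Polycomb lists all had an EoP promoter peak. Of all genes with a GMP promoter interval, 12.9% were members and 3.81% were members without an EoP promoter peak. In lists this small, the absence of such members is a description and not a result. The H3K4 methyltransferase list gave 2 members of 20, Setd1b and Paxip1, the demethylase list 3 of 11, Kdm2b, Rcor1 and Phf21a, and the Polycomb list 3 of 24, Ezh2, Jarid2 and Rybp. Membership of a list does not make a gene product an enzyme of that kind. Setd1b, a catalytic subunit, had 57.7 and 74.7 CPM in the GMP libraries, 53.6 and 50.7 in the EoP libraries and 108 and 139 in the Eos libraries, and Paxip1, an MLL3 and MLL4 complex subunit, had 75.9 and 94.4 CPM in the GMP libraries, 117 and 148 in the EoP libraries and 51.1 and 45.4 in the Eos libraries. Setd1b rose by 1.24 ± 0.23 from EoP to Eos (edgeR adjusted p = 0.00305), and Paxip1 fell by -1.45 ± 0.23 (edgeR adjusted p = 0.0013).

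In the GMP list the highest fold enrichments among members were at Gm14325 (19.04), Zfp931 (15.9), 2900097C17Rik (13.5), Fam49a (12.5), Lmtk3 (12.4) and C330007P06Rik (11.96). Of these, Fam49a had 11.7 and 13.2 CPM in the GMP libraries, 9.30 and 6.67 in the EoP libraries and 35.8 and 75.5 in the Eos libraries and rose from EoP to Eos by 2.80 ± 0.38 (edgeR adjusted p = 0.000588). Zfp931, a zinc finger gene, had 4.59 and 1.64 CPM in the GMP libraries, 2.12 and 1.71 in the EoP libraries and 1.90 and 1.40 in the Eos libraries, with libraries that overlapped between cell types. In the Eos list the highest were at Zbtb17 (24.2), Dnajc18, Eif2s3x, Gng10, Pskh1 and Med11, all with an EoP interval within 135 bases. Of all members, 454 (26.2%) share their Eos interval with another GMP promoter interval, so an Eos value of a member can also be that of its neighbour. Zbtb17, which encodes the transcription factor MIZ1, had 6.04 and 10.6 CPM in the GMP libraries, 10.9 and 10.1 in the EoP libraries and 8.32 and 11.4 in the Eos libraries, and no change of it passed the test.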

How the data were processed

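RNA was measured in 6 libraries and H3K4me3 in 3, from sorted mouse bone marrow cells. Per the submitters' processing notes, STAR 2.4.0c, Bowtie 1.0.0 and build mm10 were used; no source used here names the counting tool, peak caller or control. The authors deposited estimated counts and RPKM per transcript, and per the file headers peak lists with length, pileup signal, -log10 p and q, fold enrichment ratio and region. Counts were rounded and summed by gene symbol, and all 6 libraries were fitted together (edgeR 4.0.16 quasi-likelihood, TMM, filterByExpr, 14324 genes, Benjamini-Hochberg adjustment, threshold 0.05, R 4.3.3). The fit was tested on simulated counts. An interval listed once per summit was counted once, with its highest fold enrichment. Alternatives used DESeq2 1.42.0, limma 3.58.1 on log2(RPKM + 0.5), other scalings, filters, overlaps and thresholds.

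The members and the 22 gene lists were chosen with earlier results of these data known. Named genes were the largest changes at each step (at least 5 CPM in the higher group, no overlap of libraries), up to 8 dips at both steps, the 6 highest enrichments, the 3 longest peaks, up to 4 members of each list and the 4 nearest the rule's edge. Counting intervals (95%) and floors cover counting error only. Promoter windows came from RefSeq; Slco5a1, Arhgap24 and Rhbdl3 had no entry used here. Some genes that the rule names are not reported here.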

Additional observations from a re-analysis of the deposited data

How the results depend on the processing

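The number of member peaks was 734 with equal numbers of top-ranked intervals, 26 with -log10 q of at least 10 in GMP and Eos only (chosen after seeing the data), 590 when an EoP interval within 1000 bases also excluded and 552 without an EoP promoter peak at the gene. These 4 rules left 689, 29, 359 and 319 tested genes. Of these, genes lower in EoP than GMP numbered 80, 3, 114 and 108 (11.6%, 10.3%, 31.8% and 33.9%, against 17.1% of all 14324 genes). Higher in EoP were 71, 0, 23 and 15 (10.3%, 0%, 6.41% and 4.70%, against 9.49%). Higher in Eos than EoP were 168, 8, 112 and 96 (24.4%, 27.6%, 31.2% and 30.1%, against 19.1%), and lower 115, 6, 25 and 24 (16.7%, 20.7%, 6.96% and 7.52%, against 17.7%). Higher in Eos than GMP were 208, 6, 92 and 71 (30.2%, 20.7%, 25.6% and 22.3%, against 22.7%), and lower 169, 7, 118 and 110 (24.5%, 24.1%, 32.9% and 34.5%, against 31.8%). Lower in EoP at both steps were 28, 1, 41 and 37 (4.06%, 3.45%, 11.4% and 11.6%, against 3.60%). With -log10 q of at least 10 in each list, 82 of 1732 were lower in EoP than GMP (4.73%) and 27 at both steps (1.56%). Leaving out 1 library gave 43 to 265 lower in EoP than GMP (2.90% to 17.4%, against 2.18% to 22.9% of all genes in those fits) and 60 to 286 higher in EoP (4.04% to 18.8%, against 2.96% to 15.1%). It gave 239 to 408 higher in Eos than EoP (15.6% to 26.9%, against 10.5% to 20.1%) and 128 to 298 lower in Eos than EoP (8.37% to 19.6%, against 8.66% to 21.1%). It gave 307 to 461 higher in Eos than GMP (20.7% to 30.4%, against 16.3% to 23.3%), 132 to 384 lower in Eos than GMP (8.92% to 25.3%, against 11.4% to 29.1%), and 26 to 80 at both steps (1.75% to 5.27%, against 1.05% to 3.99%). The lone library was assumed to vary like the others. Library size alone gave 320 lower and 79 higher in EoP than GMP. It gave 278 higher and 572 lower in Eos than GMP, with the shares given above. At least 50 counts in 2 libraries gave 86 of 1098 lower in EoP than GMP (7.83%, against 6.33% of all genes), and a mean of at least 5 CPM, added after seeing the data, 90 of 1057 (8.51%, against 6.75%), with 247 lower in Eos than GMP (23.4%, against 28.1%) and 46 at both steps (4.35%, against 2.68%), fewer genes being tested. limma on log2(RPKM + 0.5) gave 47 of 1056 lower in EoP than GMP (4.45%, against 3.61%) and 264 higher (25.0%, against 22.8%). It gave 206 higher and 408 lower in Eos than EoP (19.5% and 38.6%, against 14.5% and 43.3%), and 21 at both steps (1.99%, against 1.05%). Only the transcripts of the member peaks gave, of 1348 genes, 16 lower and 38 higher in EoP than GMP (1.19% and 2.82%, against 0.968% and 2.16% of the genes of all transcripts). They gave 190 higher and 80 lower in Eos than EoP (14.1% and 5.93%, against 10.6% and 6.50%), 281 higher and 140 lower in Eos than GMP (20.8% and 10.4%, against 16.8% and 13.9%), and 11 at both steps (0.816%, against 0.586%). Except for the smaller tables, the cause was not tested.

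Deviations of same-numbered libraries correlated at -0.14 (GMP and EoP), -0.11 (EoP and Eos) and 0.04 (GMP and Eos). These values show no sign of pairing, but cannot settle whether same-numbered libraries came from the same sort. With the replicate block, 140 member genes were lower in EoP than GMP (9.60%, against 10.5% of all genes) and 55 at both steps (3.77%, against 2.65%). Of 152 called changes of named genes, 95 held in every alternative, 57 were lost without at least 1 library, 12 were lost with the replicate block, and 0 of 2065 values reversed. Other scalings moved the median log2 change of all genes by more than 0.1: DESeq2 factors by 0.11 from EoP to Eos, and upper quartile factors by -0.18 from GMP to EoP and -0.23 from GMP to Eos. Library size alone moved it most, by -0.46 from GMP to EoP, -0.12 from EoP to Eos and -0.57 from GMP to Eos.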

Other observations

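RNA was present in EoP at some genes whose promoter had no listed EoP peak. At least 1 RPKM in both EoP libraries was reached by 65 of these 506 genes (12.8%) and at least 10 RPKM by 7: Ccl6, Elf4, Hist1h2bg, Hist1h2bl, Hist1h2bm, Lyz2 and Ngfrap1, named after their values were seen. Elf4, an ETS family transcription factor, had 13.9 and 11.8 RPKM in GMP, 28.8 and 35.9 in EoP, and 48.2 and 71.2 in Eos, and its member peak lay 8211 bases from the nearest EoP interval. Hist1h2bm had 89.8 and 43.0 RPKM in GMP, 90.1 and 107 in EoP, and 32.2 and 8.03 in Eos. The 3 histone H2B genes belong to a family of near-identical copies, among which reads could be divided differently, so their values are uncertain.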
